A study of Zea mays with 24 samples.

Results

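In the maize (Zea mays) root tip, 39 genes were at their highest in the sorted cortex and at least 2 times as high there as in each of the 7 other groups of libraries. They were chosen by their normalized values in all 24 libraries of the series, from 39336 genes with identifiers of the form Zm00001d. A gene was kept when its mean over the 3 cortex libraries was at least 50 and at least 2 times the second highest group mean, and when its lowest cortex library exceeded that second mean. The kept genes were ranked by the ratio (cortex mean + 1)/(second mean + 1), and up to 200 could be taken. A cortex mean of at least 50 was reached by 18081 genes, and for 1953 of these the cortex mean was the highest of the 8 group means. The fold condition left 75 genes, and the condition on the lowest cortex library left 39, so that all 39 were taken. Of the 36 genes lost at the last step, 30 had their highest value in cortex replicate 1, and none had its lowest value there. Applied to each group in turn, the same conditions kept 1087 genes for the root cap, 1042 for the quiescent center, 564 for the endodermis, 310 for intact tips, 238 for the epidermis, 161 for the stele, 42 for unsorted protoplasts and 39 for the cortex, the fewest of the 8.

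The cortex is the ground tissue between the epidermis, the outermost layer of the root, and the endodermis, the layer that borders the central stele. In maize it consists of several cell layers. It carries water and nutrients inward from the soil, stores solutes, can form air spaces when cells die, and hosts mycorrhizal fungi. In Arabidopsis, cortex and endodermis arise from the division of shared initial cells under the transcription factors SHORT-ROOT and SCARECROW, and the series was titled as a study of the circuitry of ground tissue in monocot roots. The deposited table does not pair its identifiers with gene names, and none of the 39 matched the RefSeq table of maize genes used here, so no role is given to any of them. For the same reason the cortex label could not be checked against marker genes.

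All plants were harvested 7 days after germination after growth at 26 °C under 12 h light and 12 h dark cycles. Protoplasts, which are cells freed of their walls, were made from wild-type B73 and stained for 15 min with syto dyes, and a cell sorter separated them into epidermis, cortex and stele. The endodermis was sorted by red fluorescence from a line carrying ZmSCR::RFP, in which the SCARECROW promoter marks that layer. A ZmWOX5::RFP line gave the quiescent center, the slowly dividing cells of the stem cell niche. Both reporter lines were in B73/Hi-II. The other 3 groups were wild-type B73: dissected root cap, intact tips from which the cap had been cut, and protoplasts of such tips that were not sorted. There were 3 libraries in each of the 8 groups. The tissue of the endodermis and of the quiescent center cannot be told apart from its line and its sorting method. The labels do not say whether replicates were separate plants or sorts, so p-values measure the spread between these libraries, which may be technical.

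The deposited values have the form of gene counts scaled by 1 factor per library, so that whole reads could be recovered from them. The recovered reads ranged from 21978670 to 50289026 per library, and from 21978670 to 34655095 in the cortex. A count of 0 allows up to 3 reads, which are 1.81 to 4.46 normalized units depending on the library. Folds against groups at 0 are given against this floor of 3 reads per library and cover counting error only. In bulk libraries, fewer cells of a type and less RNA per cell cannot be told apart. Since the values are not divided by gene length, levels are compared between libraries for one gene and not between genes.

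1 library stood apart from its group over these genes. In stele replicate 3, 34 of the 39 genes (87.2%) were higher than in both other stele libraries. That share was 36.8% of the 22706 genes whose mean reached 50 in any group. The median gene was 4.69-fold above the mean of those libraries. On the log2(value + 1) scale the median difference was 2.25, against −0.05 over those 22706 genes. The main results on the stele are therefore given with and without this library, as an alternative chosen after its values were seen. Without it the same conditions kept 342 genes for the stele in place of 161. Leaving out a library loosens the condition on the lowest library. For the cortex, leaving out replicate 1, 2 or 3 kept 35, 120 and 95 genes in place of 39. No count was made without stele replicate 1 or 2, so the part of replicate 3 in this rise was not tested.

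**Figure D1:**
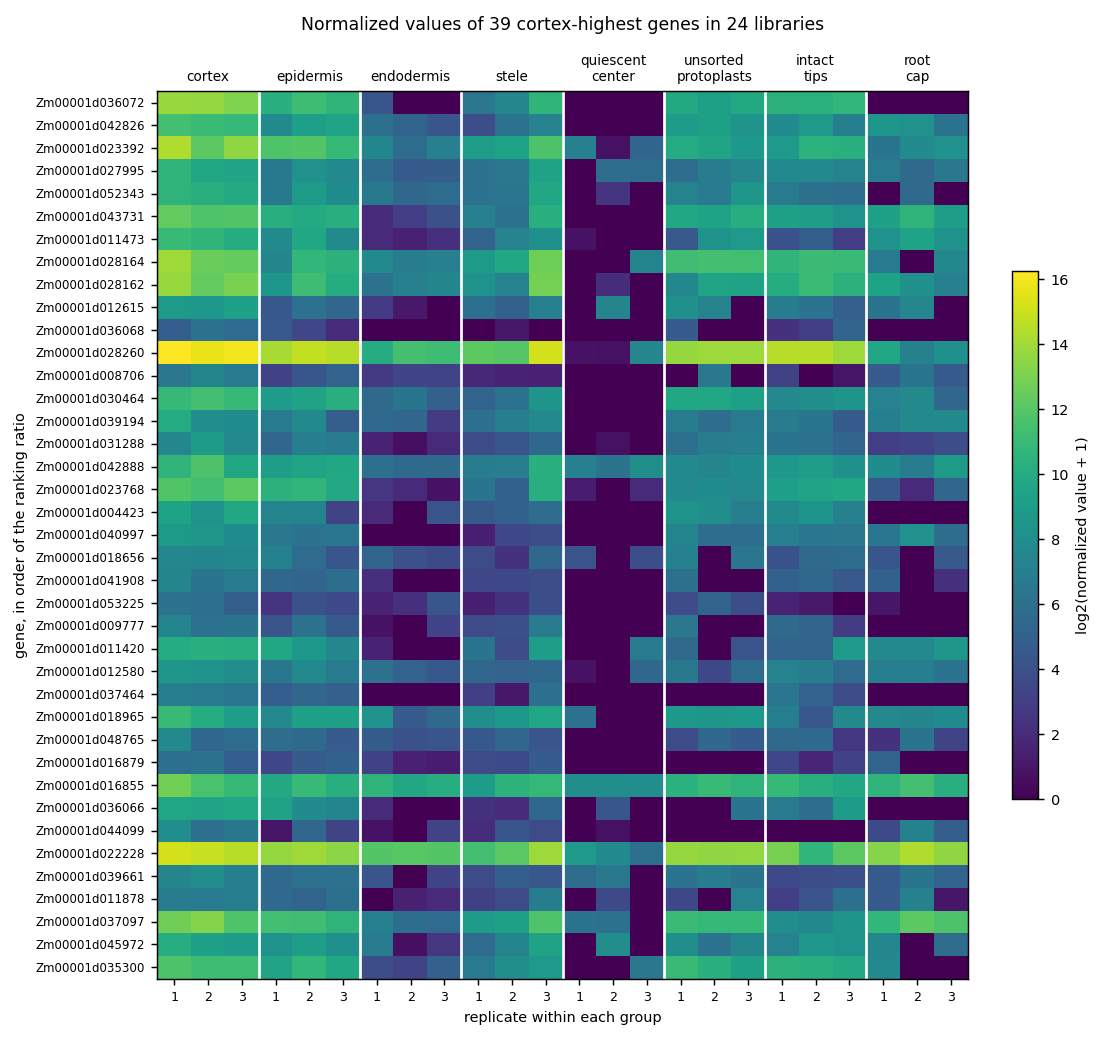
Normalized values, as log2(value + 1), of the 39 genes (rows, in order of the ranking ratio) in each of the 24 libraries (columns, by group and replicate). The 3 cortex columns are the brightest for most genes, many genes are at 0 in the quiescent center, and stele replicate 3 is brighter than stele replicates 1 and 2.

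The genes spanned a wide range of levels in the cortex. Their cortex means ran from 50.3 to 66771 normalized units, with a median of 777 and quartiles of 157 and 3135. The cortex mean was 2.02 to 6.81 times the second highest group mean, with a median of 2.53, and 11 genes were at 3-fold or more. These values chose the genes and are given as a description. At a fold condition of 1.5 the other conditions would have kept 127 genes, at 2.5 they would have kept 21, at 3 they would have kept 11 and at 4 they would have kept 3. Just inside the condition lay Zm00001d035300, at 2.02-fold, and Zm00001d045972, at 2.04-fold. Just outside lay Zm00001d012031, at 2.00-fold (a cortex mean of 474 over 237), and Zm00001d027768, at 1.99-fold (2274 over 1145).

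The first gene in the ranking, Zm00001d036072, was at 13837, 13058 and 8679.5 in the cortex libraries. It was at 1286, 2369 and 1572 in the epidermis, at 919, 609 and 941 in unsorted protoplasts and at 1402, 1341 and 1763 in intact tips. In the stele it was at 84.9, 184 and 1593, and in the endodermis at 19.8, 0 and 0. It was at 0 in all 3 quiescent center libraries and in all 3 root cap libraries. All cortex libraries lay above every other library, the lowest of them at 3.66 times the highest value outside the cortex.

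Zm00001d042826, second in the ranking, was at 2648, 2128 and 1799 in the cortex and at 218, 576 and 734 in the epidermis. Its values were 483, 597 and 333 in unsorted protoplasts, 228, 433 and 128 in intact tips and 374, 299 and 71.3 in the root cap. The inner tissues were lower still, at 63.8, 37.4 and 18.6 in the endodermis and 13.6, 66.3 and 148 in the stele, and the quiescent center was at 0 throughout. All 3 cortex libraries lay above every other library. Zm00001d023392, the third, was less even, at 20818, 4641 and 12169 in the cortex against 3515, 3819.6 and 1939 in the epidermis and 536, 686 and 3409.9 in the stele. Its spread over the cortex libraries was 64.5% of the mean (CV).

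The next genes in the ranking had the stele as their second group, and in both that place rested on stele replicate 3. Zm00001d027995 was at 1555, 872 and 732 in the cortex and at 71.3, 88.7 and 660.3 in the stele. Zm00001d052343 was at 1493, 1158 and 993 in the cortex and at 73.0, 83.4 and 820.0 in the stele. In the other groups the first stayed at or below 299 and the second at or below 467, both maxima being in epidermis replicate 2. Of the 4 genes that had the stele second, none kept it second without stele replicate 3.

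Zm00001d043731 was at 5149.5, 3501 and 3623 in the cortex, at 1217, 993 and 1215 in the epidermis and at 621, 1512 and 556 in the root cap. It was at 2.84, 6.64 and 15.0 in the endodermis and at 0 in the quiescent center. Zm00001d011473 had the root cap second, at 331, 691 and 320.3 beside 2117, 1617 and 1049 in the cortex. In intact tips without cap it was at 15.9, 29.8 and 6.87, and in the endodermis at 2.84, 1.81 and 3.58. Zm00001d012615 was at 453, 398 and 627 in the cortex and at 283, 156 and 0 in unsorted protoplasts, so that 1 of the 3 protoplast libraries of its second group held no read.

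The gene with the highest cortex mean was Zm00001d028260, at 78355, 56547 and 65412 in the cortex. It was at 18950.0, 27553 and 23504 in the epidermis, at 23530.4, 23336 and 15027 in intact tips and at 13238, 15260.0 and 15157 in unsorted protoplasts. In the stele it was at 4532, 3991 and 36406, and in the root cap at 801, 143 and 280.1. The second highest, Zm00001d022228, was at 37519, 30496 and 23026 in the cortex and at 9939.9, 20781 and 12241 in the root cap. It was also present in the inner tissue, at 3863, 4137 and 3892 in the endodermis. The remaining genes with cortex means among the highest 5 were Zm00001d023392, Zm00001d036072 and Zm00001d028162.

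Together the 39 genes held 0.536% ± 0.071 of all normalized values in the cortex libraries (SD, n = 3). The share was 0.188% ± 0.028 in the epidermis (SD, n = 3). Intact tips were at 0.140% ± 0.012 and unsorted protoplasts followed at 0.137% ± 0.00086 (SD, n = 3). It was 0.078% ± 0.016 in the root cap, 0.027% ± 0.002 in the endodermis and 0.0054% ± 0.0004 in the quiescent center (SD, n = 3). In the stele it was 0.036% and 0.040% in replicates 1 and 2 and 0.282% in replicate 3, which lay above every epidermis library. With Zm00001d028260 left out, the cortex share was 0.334% ± 0.060 and the epidermis share 0.110% ± 0.018 (SD, n = 3). Unsorted protoplasts then held 0.0886%, the root cap 0.0768%, intact tips 0.0647%, the endodermis 0.0203% and the quiescent center 0.0051%, so that intact tips came below unsorted protoplasts and root cap. The order of the groups follows in part from the choice of the genes, and no test was made of it.

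**Figure D2:**
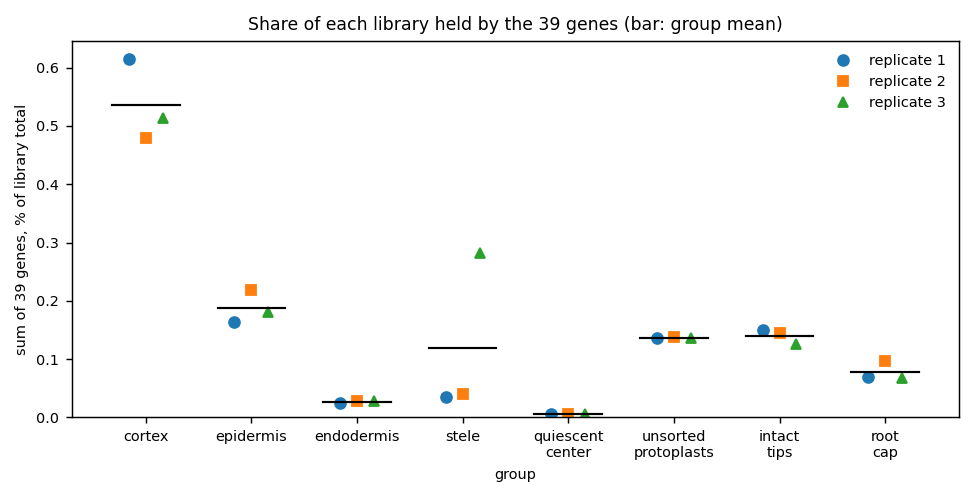
Sum of the 39 genes as a percentage of all normalized values in each library (vertical axis), by group, with 1 symbol per replicate and a bar at the group mean. The cortex libraries lie between 0.479% and 0.616%, stele replicate 3 lies at 0.282%, and the other stele libraries lie at 0.036% and 0.040%.

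As a percentage of the cortex mean, the median gene was at 33.3% in the epidermis, 21.8% in unsorted protoplasts, 18.3% in intact tips, 12.3% in the stele, 10.7% in the root cap, 1.82% in the endodermis and 0.093% in the quiescent center. Without stele replicate 3 the median in the stele was 6.38%, below the root cap, and in replicate 3 alone it was 27.3%. The mean was under 10% of the cortex mean for 32 of 39 genes in the endodermis and 36 in the quiescent center. This held for 1 gene in the epidermis, Zm00001d012615, and for 18 in the root cap. The choice favours low values outside the cortex, and no share over all genes stands beside these counts, so they are a description. The epidermis was the second highest group for 16 genes, the root cap for 9, unsorted protoplasts for 8, the stele for 4 and intact tips for 2, while endodermis and quiescent center were second for none.

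**Figure D3:**
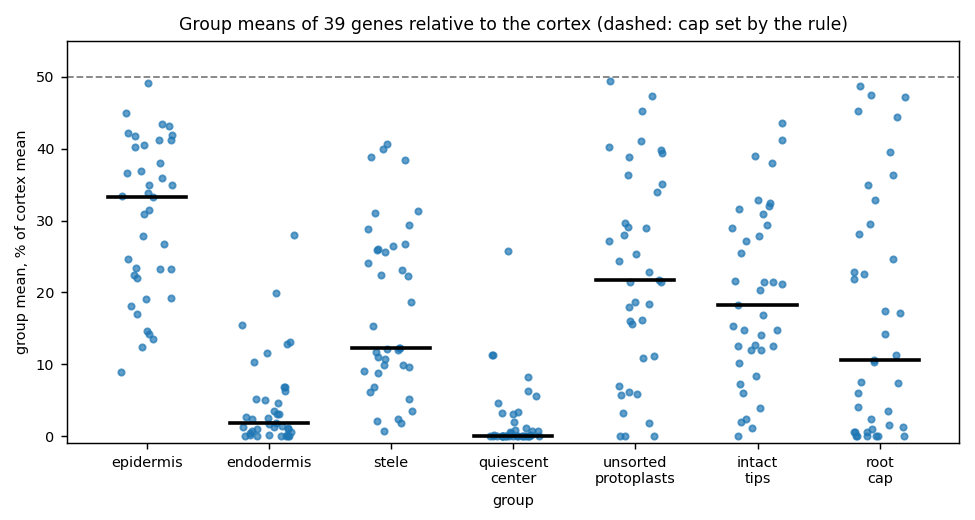
Mean of each of the 39 genes in 7 groups as a percentage of its cortex mean (vertical axis), with 1 point per gene and a bar at the median. The dashed line at 50% is the upper limit that the choice of genes sets, and the medians run from 33.3% in the epidermis to 0.093% in the quiescent center.

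In the quiescent center, 15 of the 39 genes were at 0 in all 3 libraries and 34 were at 0 in at least 1. No share of all genes at 0 was computed, so these counts are a description. The quiescent center libraries held 18676, 20161 and 19282 genes at 10 or more, beside 20011 to 22665 in the libraries of other groups. Against the floor of 3 reads per library these 15 genes were at least 20.0-fold to 4970-fold below the geometric mean of the cortex libraries, the latter for Zm00001d036072. The root cap had 6 genes at 0 throughout and the endodermis and unsorted protoplasts 3 each. The mean in the quiescent center was above 10% of the cortex mean for 3 genes. Zm00001d039661 reached 25.8%, at 52.3, 90.2 and 0 beside 168, 253 and 131 in the cortex. The other such genes, Zm00001d012615 at 0, 167 and 0 and Zm00001d045972 at 0, 254 and 0, held reads in replicate 2 alone. Zm00001d016855 was even across the 3 quiescent center libraries, at 266, 259 and 245, and was at 515 or more in every library outside that tissue, with 7229, 3131 and 1889 in the cortex.

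The cortex libraries differed among themselves. Replicate 1 held the highest of the 3 values for 24 of the 39 genes, or 61.5%, against 28.6% of the 18081 genes whose cortex mean reached 50. Replicate 2 was highest for 9 and replicate 3 for 6. The median CV per gene was 38.6%, beside 39.5% over the 18081 genes. The condition on the lowest cortex library limits this spread for the 39 genes alone, so these values are a description. The most even were Zm00001d018656, at 179.9, 176 and 190.4 (CV 4.08%), Zm00001d011878, at 114, 108 and 123 (CV 6.51%), and Zm00001d036066, at 764, 710.3 and 856 (CV 9.50%). The least even were Zm00001d048765, at 204, 44.0 and 52.7 (CV 89.9%), Zm00001d039194, at 1010.1, 253 and 238 (CV 88.3%), and Zm00001d044099, at 253, 60.0 and 81.0 (CV 80.7%). In each of the latter 3, replicate 1 was the highest of the cortex libraries.

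Every cortex library lay above every library of all other groups for 21 of the 39 genes, beside 0.454% of the 18081 genes whose cortex mean reached 50. The choice of the genes favours such a gap, so these counts are a description from which nothing is read. Against the endodermis all 39 genes were free of overlap, beside 20.3% of the 18081, and against the quiescent center all 39, beside 27.5%. The count was 34 against intact tips, beside 24.3%, and 33 against the epidermis, beside 14.3%. It was 32 against unsorted protoplasts, beside 17.4%, and 32 against the root cap, beside 21.3%. Against the stele it was 31, beside 18.2%, and without stele replicate 3 it was 39, beside 22.9%. Without that library 23 genes were free of overlap with all groups, beside 0.481%. Stele replicate 3 was the highest library outside the cortex for 9 genes, root cap replicate 2 for 7 and epidermis replicate 2 for 6. Zm00001d028162 was at 7577 in stele replicate 3, above its cortex replicate 2 of 5276, while stele replicates 1 and 2 were at 324 and 147.

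The choice was repeated with 1 cortex library left out, and that library was then set beside the second highest group mean. With replicate 1 left out, 35 genes met the conditions, and in all 35 the left-out library lay above the second highest group mean. Among all 17905 genes whose mean reached 50 in the other cortex libraries, that share was 16.1%. With replicate 2 left out, 120 genes met the conditions and 47 of them (39.2%) had the left-out library above the second mean, beside 14.4% of 18111 genes. With replicate 3 left out, 95 genes met the conditions and the left-out library was above in 61 (64.2%), beside 12.4% of 17807 genes. The other groups' libraries were the same in the choice and in this count, so only the left-out cortex library was new. The labels do not say whether the cortex libraries are independent of each other. The background genes did not have to be highest in the other cortex libraries, so a higher share among the chosen genes was favoured. These counts and the next ones are a description. At least 2 times the second mean, the condition that the choice itself sets, was reached by left-out replicate 1 in 24 of 35 genes (68.6%), beside 2.02% of all. Left-out replicate 2 reached it in 20 of 120 (16.7%), beside 0.756%, and left-out replicate 3 in 21 of 95 (22.1%), beside 0.635%. Of the 39 genes, 27, 33 and 38 were also chosen without replicates 1, 2 and 3.

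Comparisons between groups other than the cortex ask how the genes differ where the choice did not look for a difference. The choice held both groups to at most 50% of the cortex mean and set no order between them. Values were fitted as log2(value + 1) with limma over 25555 genes, and a gene was called at a Benjamini-Hochberg adjusted p below 0.05 and a log2 change of at least 1 in size. The fit held all 24 libraries, so the spread behind each SE and p took in the cortex libraries that the choice had used. All 39 genes passed the filter on low values, to which the cortex libraries alone could suffice, so counts over the 39 are descriptions.

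Epidermis and stele were both dye-sorted from the same wild-type line. Of the 39 genes, 35 had a positive log2 change of epidermis over stele, beside 47.3% of all genes tested. The median change was 1.41, beside −0.06 over all genes tested. Without stele replicate 3, 38 were positive, with a median of 2.17 beside −0.08. In this comparison 7 genes rose, where 5.54% of all genes rose, and 0 fell, where 9.36% of all genes fell. At an unadjusted p below 0.05 there were 9 of the 39 (23.1%) in either direction, under the 27.8% of all genes. Without stele replicate 3, 10 genes rose, beside 4.45% of all genes, and 0 fell, beside 7.85%. By edgeR's quasi-likelihood test 3 rose, beside 4.74% of all genes, and 0 fell, beside 6.83%. In a limma fit without the cortex libraries 4 rose and 0 fell, with 3758 genes called in all in place of 3808. The mean of the epidermis was above that of stele replicates 1 and 2 for 38 of the 39 genes. The limma count of 7 genes that rose fell to 3, 3 and 4 without epidermis replicates 1, 2 and 3 and to 2 and 3 without stele replicates 1 and 2. None of these fits paired libraries by replicate number. With a replicate block 6 rose, and 10 with the block on dye-sorted tissues alone, added after seeing the data.

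The largest rise among those called was that of Zm00001d036066, at 653, 231 and 162 in the epidermis and 4.25, 3.21 and 42.0 in the stele. All epidermis libraries lay above all stele libraries. Its log2 change was 4.89 (SE 1.46, limma adjusted p = 0.0257), and it did not pass by edgeR, with an adjusted p of 0.133. Over the alternatives for this gene that leave out 1 library the adjusted p ranged from 0.0176 to 0.115. Zm00001d040997 was at 90.9, 71.8 and 80.7 in the epidermis and at 1.70, 10.7 and 14.0 in the stele, a log2 change of 3.39 (SE 0.75, limma adjusted p = 0.00367). Without stele replicate 3 the change was 3.86 for this gene and 5.96 for Zm00001d036066. The other 5 that rose were Zm00001d042826, Zm00001d043731, Zm00001d036068, Zm00001d030464 and Zm00001d023768.

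Epidermis and endodermis border the cortex on its outer and inner side. All 39 genes had a higher mean in the epidermis than in the endodermis. Their log2 changes were all positive, as were those of 49.6% of all genes tested. The median log2 change was 3.63, beside 0.00 over all genes tested. In this comparison 22 genes rose, where 10.2% of all genes rose, and 0 fell, where 11.1% of all genes fell. By edgeR 20 rose, beside 9.07% of all genes, and 0 fell, beside 9.51%. In a limma fit without the cortex libraries 19 rose and 0 fell, with 5432 genes called in all in place of 5441. At an unadjusted limma p below 0.05 there were 29 of the 39 (74.4%), beside 33.1% of all genes. The 7 genes that rose over the stele all rose here too, and both comparisons share the epidermis libraries. The endodermis came from a reporter line of another cultivar, so layer, line and sorting method cannot be told apart.

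Zm00001d036072, whose values are given above, had a change of epidermis over endodermis of 9.26 log2 units (SE 0.96, limma adjusted p = 7.37e-07). With 2 endodermis libraries at 0 its size depends on the offset, and it was 6.88 with an offset of 10 and 8.07 by edgeR. Zm00001d023768 was at 1409, 1649.5 and 894 in the epidermis and at 4.96, 3.02 and 0.716 in the endodermis, a change of 8.53 (SE 1.00, limma adjusted p = 3.1e-06). It was 6.65 with an offset of 10 and 8.79 by edgeR, so that the order of these genes by size turns between the tools. Neither gene's libraries overlapped between these layers. Zm00001d036068, Zm00001d040997 and Zm00001d037464 were at 0 in all endodermis libraries, and against the floor of 3 reads they were at least 4.35-fold, 39.9-fold and 15.9-fold lower there. At the other end, Zm00001d016855 had a log2 change of 0.24 (SE 0.49), at 910.0, 1986 and 1244 in the epidermis and 1495, 822 and 1120.0 in the endodermis.

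Unsorted protoplasts and intact tips both contain cortex, and their comparison sets digested cells beside undigested tissue. The median log2 change of the 39 genes was −0.28, beside −0.15 over all genes tested. It was −0.38 with 1 gene at 0 in both groups left out and 2 genes at 0 in 1 group set to their bound. Those 2 stayed below the median, so the shift came from the gene left out. Here 2 genes rose, where 9.27% of all genes rose, and 2 fell, where 8.58% of all genes fell, so the counts lay near or under the background in either direction. The share of the libraries held by the genes was 0.137% in protoplasts and 0.140% in tips, but without Zm00001d028260 it was 0.0886% ± 0.0039 in protoplasts and 0.0647% ± 0.0053 in tips (SD, n = 3). The mix of cell types and any change on isolation cannot be told apart in this comparison.

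Zm00001d053225 rose in protoplasts, at 12.6, 37.6 and 14.3 against 1.99, 1.19 and 0 in intact tips, by 3.42 log2 units (SE 0.80, limma adjusted p = 0.00534). All its tip values lay under the floor of 3 reads, so the size depends on the offset, and it was 1.43 with an offset of 10. Zm00001d011473 also rose, at 22.1, 319 and 432 against 15.9, 29.8 and 6.87, by 3.20 (SE 0.96, limma adjusted p = 0.0236). Its protoplast replicate 1 lay within the range of intact tips, and without protoplast replicate 2 or 3 or intact tips replicate 1 or 3 it no longer passed, with adjusted p values of 0.0996, 0.121, 0.0553 and 0.0993. Zm00001d037464 was at 0 in all protoplast libraries and at 82.5, 33.3 and 12.0 in intact tips, at least 10.05-fold lower against the floor (limma adjusted p = 0.000429). Zm00001d036066 was at 0, 0 and 73.8 in protoplasts and at 105, 55.9 and 472 in intact tips and fell by 5.08 log2 units (SE 1.46, limma adjusted p = 0.0189). With an offset of 10 it fell by 2.92, and by edgeR it fell by 3.18. Its groups overlapped, and it did not pass by edgeR (adjusted p = 0.241), nor without protoplast replicate 1 or 2 or intact tips replicate 3 (limma adjusted p of 0.0898, 0.0913 and 0.0886).

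The root cap lies outside the cortex, and intact tips without cap contain it. This comparison shares the intact tips with that of the protoplasts. Of the 39 genes, 12 fell in the cap, where 14.2% of all genes fell. A further 5 rose, a share under the 18.4% of all genes that rose. The median log2 change was −1.31, beside 0.06 over all genes tested. By edgeR 11 fell, beside 13.4% of all genes, and 3 rose, beside 15.7%. Without root cap replicate 2 or intact tips replicate 2, 2 genes rose.

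Among those that fell, Zm00001d036072 was at 0 in all cap libraries and at 1402, 1341 and 1763 in intact tips, at least 433-fold lower against the floor (limma adjusted p = 7.96e-08). Zm00001d004423 was at 0 in the cap and at 215, 336 and 134 in intact tips, at least 61.8-fold lower (limma adjusted p = 7.5e-06). Zm00001d028260, the gene with the highest cortex mean, fell by 5.99 log2 units (SE 1.19, limma adjusted p = 0.000565). Among those that rose, Zm00001d044099 was at 11.2, 138 and 29.1 in the cap and at 0 in all intact tips, at least 11.8-fold lower in the tips (limma adjusted p = 0.00081). It was also at 0 in all protoplast libraries, which contain cortex, while it was at 253, 60.0 and 81.0 in the sorted cortex. Zm00001d011473 rose by 4.71 (SE 0.96, limma adjusted p = 0.000668). The other 3 that rose were Zm00001d008706, Zm00001d022228 and Zm00001d037097, and all 5 had the root cap as their second highest group. A further 4 genes with the root cap second were not called here. The second group was taken from the same libraries, so nothing is read from these counts.

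**Figure D4:**
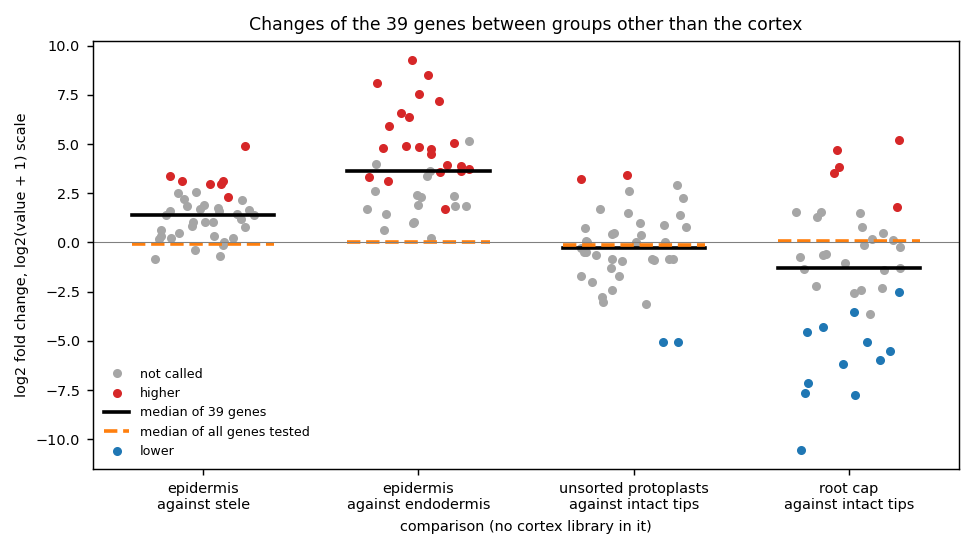
Log2 change of each of the 39 genes on the log2(value + 1) scale (vertical axis) in 4 comparisons between groups other than the cortex (horizontal axis). Colors show whether limma called it higher, lower or not, in a fit whose spread per gene took in the cortex libraries. The black bar is the median of the 39 and the dashed bar that of all 25555 genes tested: 3.63 beside 0.00 for epidermis against endodermis and −1.31 beside 0.06 for root cap against intact tips. Values of genes at 0 in a group depend on the offset of 1.

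Of the 39 genes, 28 (71.8%) were called in at least 1 of the 4 comparisons, beside 52.4% of all genes tested, and 11 in none. The 11 were not shown to be even, since several had wide errors, as with Zm00001d012615, whose log2 change of epidermis over endodermis was 3.99 with an SE of 2.06.

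Stele replicate 3 was set beside other lists chosen by the same conditions. The log2 difference between this library and the mean of the other stele libraries had a median of 2.25 and quartiles of 1.14 and 3.28 over the 39 genes. Over the 200 genes taken for the epidermis the median was −0.57, over the 200 for the endodermis −0.35, over the 200 for the quiescent center 0.14 and over the 200 for the root cap 0. Of the 39 genes, 21 (53.8%) were at least 4-fold higher in stele replicate 3 on this scale, beside 280 (1.23%) of 22706 genes in all. In the other lists that share was 13.5% for the root cap, 5.5% for the epidermis, 2.5% for the quiescent center and 1% for the endodermis. Among those 280 genes, the highest group other than the stele was the cortex for 89 (31.8%), the root cap for 79 (28.2%) and the epidermis for 54 (19.3%). Over the 22706 genes these shares were 10.3%, 18.2% and 8.07%. The part of cortex cells or of sorting in these values was not tested.

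The rise in stele replicate 3 was not shared evenly by the 39 genes. Zm00001d028162 was 32.2-fold above the mean of the other stele libraries, Zm00001d023768 21.7-fold and Zm00001d043731 12.2-fold. In contrast, Zm00001d048765 was 0.615-fold and Zm00001d008706 was 0.797-fold, and Zm00001d036068 was at 0 in the library. Zm00001d012580 was at 40.8, 34.2 and 42.0 in the 3 stele libraries, beside 396, 323 and 255 in the cortex.

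**Figure D5:**
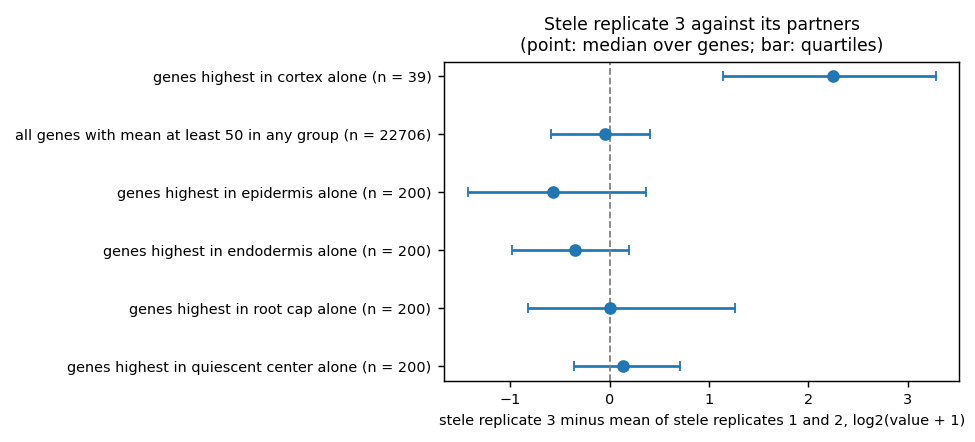
Difference between stele replicate 3 and the mean of stele replicates 1 and 2, on the log2(value + 1) scale (horizontal axis), for lists of genes (rows, with the number of genes). Points are medians over genes and bars are quartiles: 2.25 for the 39 genes and between −0.57 and 0.14 for the other lists.

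No members had consecutive identifier numbers. After their values were seen, 5 were singled out whose numbers lie within 4 of another member's. Zm00001d028162 and Zm00001d028164 were both high in the cortex, at 13931, 5276 and 8138 and at 15378, 6143 and 5413, and both rose in stele replicate 3, to 7577 and 6483. They differed in unsorted protoplasts, with 180.0, 723 and 698 for the first and 2502, 2707 and 2608 for the second. Zm00001d036066, Zm00001d036068 and Zm00001d036072 were all at 0 in every root cap library and present in the epidermis, with cortex means of 777, 50.3 and 11858. Across the 24 libraries, on the log2(value + 1) scale, Zm00001d028162 and Zm00001d028164 had a Pearson correlation of 0.753. The 3 pairs within the other run had 0.755, 0.755 and 0.808. Over all 741 pairs of the 39 genes the median was 0.616, with quartiles of 0.505 and 0.730, a description over libraries that share tissues. Whether these genes are neighbours on a chromosome or near-identical copies, whose reads the authors' counting could split, is not annotated in the sources used here.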

How the data were processed

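RNA was sequenced from 24 libraries. Trimmomatic, kallisto 0.43 and DESeq2 appear in the submitters' processing notes, without their roles, and genome build and annotation are not given in the sources used here. Deposited values are a signal per gene for 39510 identifiers, 174 of them of another form than Zm00001d. From the values they are gene counts over one size factor for each library. All values lay within 0.01 of whole reads in every library (100% of values above 0), so reads were recovered; in libraries whose step lies near 1 this test is weak. The 8 columns of the authors' group averages were not used.

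Computed here: the choice of genes, means, SDs and shares (Python 3.11.15, pandas 2.3.3), and limma 3.58.1 in R 4.3.3 on log2(value + 1). The fit took all 24 libraries with 1 mean per group and a trended variance, over 25555 genes at 10 or more in at least 3 libraries, with Benjamini-Hochberg adjustment over these genes. edgeR 4.0.16 on recovered reads was an alternative, which called 2957, 4750, 3581 and 7434 genes in the 4 comparisons where limma called 3808, 5441, 4562 and 8321. Both were also run on simulated counts, as a check of the code. That simulation gave every gene the same spread setting and held no library like stele replicate 3, so it says nothing on the calls made here. Other alternatives were pseudocount 10, no filter, TMM and quantile scaling, other sets of libraries, weights per group, no fold threshold, a replicate block and libraries left out in turn.

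Members and lists were chosen with earlier results of these data known. Named genes were the first 10 in the ranking, the 5 with the highest cortex mean, up to 2 higher and 2 lower per comparison with the largest change, those next to the fold condition, those with the smallest and largest CV, and runs of identifiers. Others in the text were singled out after their values were seen. The lists of symbols planned as cell type markers could not be matched to identifiers and were not used.

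Replicate numbers come from the titles. The descriptions of the third epidermis, cortex and stele libraries give replicate 2 in place of 3, so the pairing by number is uncertain there. Deviations of same-numbered epidermis and stele libraries correlated at 0.17, 0.33 and 0.35, so these numbers were taken to pair them. The reported fit did not use this pairing, and a replicate block was an alternative. Such correlations were −0.20 to 0.16 for epidermis and endodermis and −0.06 to 0.02 for the other comparisons, which were not taken as paired. The third dye-sorted tissue did not follow the numbers, at 0.15, −0.35 and 0.03 for epidermis and cortex and 0.06, −0.55 and −0.18 for cortex and stele.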

Additional observations from a re-analysis of the deposited data

How the results depend on the processing

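The conditions kept 52 genes with TMM factors, 40 with quantile normalization, 58 with medians per group and 41 without the quiescent center, beside 39 as reported. They kept 143 when the second mean was taken over the other sorted tissues only, a weaker condition by construction. Leaving out 1 cortex library gave 35 to 120 genes, of which 27 to 38 were among the 39. Without stele replicate 3, an alternative chosen after seeing the data, 49 passed, with all 39 among them.

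Beside 7 genes called higher in the epidermis than in the stele, the count was 3 by edgeR, 4 in a fit without the cortex, 12 with weights per group and 2 to 10 with 1 library left out. With a replicate block the count was 6, and 10 with the block on dye-sorted tissues alone, added after seeing the data. Epidermis over endodermis gave 19 in a fit without the cortex, 16 to 20 with 1 library left out and 20 with the block, beside 22. For protoplasts against intact tips, 2 higher became 4 with pseudocount 10, 4 with these groups fitted alone, 1 with quantile normalization and 1 to 2 with 1 library left out. The 2 lower became 1 by edgeR and 1 to 4 with 1 library left out. For the root cap, 5 higher became 3 by edgeR and 2 to 5 with 1 library left out, and 12 lower became 11 to 13. With the groups compared alone neither Zm00001d011473 nor Zm00001d036066 passed for protoplasts (limma adjusted p = 0.171 and 0.153). The block, which pairs libraries by number, changed no count by over 1.5 times. No member named by its change reversed direction, and the cause of these shifts was not tested.

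Precision is limited by 3 libraries per group and, for genes at or near 0, by the floor of 3 reads.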
